A study of Mus musculus with 4 samples.

Results

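The mitochondrial protein import machinery was followed in mouse embryonic stem (ES) cells with and without Snai1, through the transcripts of 35 of the 18193 genes measured. The genes were taken by symbol, as Timm or Tomm followed by a digit, or Pam16, Dnajc19, Samm50, Mtx1, Mtx2, Chchd4, Gfer, Hspd1, Hspe1, Hspa9, Grpel1, Pmpca or Pmpcb, on probe sets annotated with exactly 1 gene. Each gene was read from the probe set that was brightest on average over the 4 arrays. Tomm5, Tomm6 and Dnajc19 had only probe sets shared with another annotated gene and were not analysed here. The compared groups were Snai1 knockout ES cells (2 Affymetrix arrays, titled KO.ES) and control ES cells (2 arrays, titled F/F.ES). Both groups were grown with leukaemia inhibitory factor on feeder cells, without further treatment, and the labels give neither strain, clone nor how the deletion was made. The control samples carry the genotype label control, although the source name of these samples mentions a knock out as well, so the direction of each difference rests on the titles and the genotype labels. The labels call the samples biological replicates without saying what separated them, so p-values measure only the spread between these samples.

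Nearly all mitochondrial proteins are made in the cytosol and enter through the TOM complex of the outer membrane, in which receptors (Tom20, Tom22, Tom70) pass precursors to the Tom40 channel. From there, outer membrane barrel proteins are inserted by the SAM complex, carrier proteins are escorted by the small Tim chaperones to the TIM22 complex, and precursors with a cleavable presequence pass through the TIM23 complex and are drawn into the matrix by a motor built on the chaperone mortalin. In the matrix the presequence is removed by a processing peptidase, and the Hsp60-Hsp10 chaperonin helps many proteins to fold. Snai1 encodes Snail, a zinc finger repressor that binds E-box sequences and is best known for silencing epithelial genes.

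Promoters are shown for Tomm40, the import gene with the largest difference, for Timm10b, the small Tim with the largest difference, and for Hspe1, which lies head to head with Hspd1 so that its window overlaps those of Hspd1. Each window runs from 250 bases before to 50 bases after the RefSeq gene start (GRCm38.p6), 5′ to 3′ on the gene's strand. Capitals mark the CCAAT box (CCAAT) in Tomm40, the Snail E-box (CAGGTG) and an ETS factor site (CCGGAAGT) in Timm10b, and a heat shock element (GAANNTTC) in Hspe1, each searched on both strands.
Tomm40, chr7:19715380-19715679, minus strand: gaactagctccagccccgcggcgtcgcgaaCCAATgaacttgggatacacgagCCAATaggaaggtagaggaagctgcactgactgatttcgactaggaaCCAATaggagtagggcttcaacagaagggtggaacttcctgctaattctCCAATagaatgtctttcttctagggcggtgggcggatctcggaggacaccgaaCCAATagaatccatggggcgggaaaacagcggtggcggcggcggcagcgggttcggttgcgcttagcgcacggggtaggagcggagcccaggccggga
Timm10b, chr7:105640195-105640494, plus strand: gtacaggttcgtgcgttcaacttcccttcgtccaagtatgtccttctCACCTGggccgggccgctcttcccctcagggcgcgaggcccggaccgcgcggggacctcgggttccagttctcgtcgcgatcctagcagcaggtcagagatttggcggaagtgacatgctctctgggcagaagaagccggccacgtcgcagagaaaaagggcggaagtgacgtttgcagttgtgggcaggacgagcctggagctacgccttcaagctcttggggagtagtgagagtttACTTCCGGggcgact
Hspe1, chr1:55087898-55088197, plus strand: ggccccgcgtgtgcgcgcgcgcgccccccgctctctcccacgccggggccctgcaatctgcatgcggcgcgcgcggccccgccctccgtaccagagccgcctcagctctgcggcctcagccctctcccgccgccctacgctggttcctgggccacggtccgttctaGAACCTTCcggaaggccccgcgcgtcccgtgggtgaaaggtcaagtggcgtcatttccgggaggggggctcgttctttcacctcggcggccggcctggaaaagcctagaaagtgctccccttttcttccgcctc
RefSeq promoter windows were at hand for 31 of the 35 import genes, and a gene was counted when any of its windows held the letters. The Snail E-box letters occurred in 3 of them (9.68%), Timm10b, Timm17b and Timm29, against 22.6% of all 27025 genes with a window, and neither in the Tomm40 nor in the Hspe1 window. The ETS letters, the core bound by the GABP factor that activates many nuclear genes for mitochondrial proteins, occurred in 8 of the 31 (25.8%), against 4.31% of all genes. The core TGCGCA of sites for NRF1, another activator of such genes, occurred in 6 (19.4%), against 8.79% of all genes. The heat shock letters were found in Hspd1, Hspe1 and Timm9 (9.68%), against 9.04% of all genes. Tomm40 held 5 CCAAT boxes, letters bound by the factor NF-Y that were searched after its sequence was seen. At least 5 were found in 0.271% of all 32851 windows, and CCAAT at least once in 9 of the 31 import genes (29%), against 41.1% of all genes. These matches are descriptions of letters and show neither binding nor its absence.

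Array-wide measures set the frame for these values. The knocked-out gene itself, Snai1, was at 3.79 and 4.04 in the knockout, against 4.41 and 4.69 in the control arrays (log2 expression value), all as dim as the 27 Bacillus control probe sets, which no mouse RNA should bind (2.91 to 4.77), and its difference was -0.63 (adjusted p = 0.0692 with limma). The sources used here do not say whether this probe set falls within the deletion. Of 10 ES cell markers 5 (50%) rose, Utf1, Lin28a, Esrrb, Nanog and Pou5f1, against 1.98% of all genes called higher. The remaining 5 did not pass, and all 10 were bright in both groups. The 14 measured feeder fibroblast markers averaged 7.38 in replicate 1 and 6.67 in replicate 2 of the knockout, against 7.65 in replicate 1 and 7.02 in replicate 2 of the control, and all except Lum and Pdgfrb stayed above the Bacillus range on all 4 arrays. Of the 14 feeder markers' differences 5 were positive and 9 negative, from -1.24 (Prrx1) to 0.46 (Col1a1), and none passed with limma. Fewer cells of a type and less RNA per cell cannot be told apart in such samples. The gap between the 3' and 5' control probe sets of Actb, a usual check of RNA integrity and of labelling from the 3' end, was 1.11 and 0.80 in the knockout, against 3.02 and 2.97 in the control arrays. For Gapdh it was 0.40 and 0.27 in the knockout, against 1.24 and 1.48 in the control. Both gaps were smaller in both knockout arrays, by a difference of -2.04 for Actb and -1.02 for Gapdh, and their part in the results below was not tested.

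Among the 35 import genes, 2 rose in the knockout and none fell, and both belong to the TOM complex: Tomm40, its channel, and Tomm7, a small subunit. This is 5.71% of the import genes, against 4.14% of all genes called in either direction (1.98% higher and 2.17% lower), so the share called was near the background. The import genes' median log2 difference, knockout minus control, was -0.01, with 17 positive and 18 negative differences, beside a median of -0.02 over all genes. The knockout arrays did not overlap the control arrays in 21 genes (60%), against 52.3% of all genes, with 11 above and 10 below. Among bright genes, those with a mean of at least 6, the share without overlap was 60.6% of 33 import genes against 63.6% of all 9484, and the share called was 6.06% against 7.29%. At an unadjusted limma p under 0.05 there were 8 higher and 4 lower import genes (22.9% and 11.4%), against 9.06% higher and 14.9% lower over all genes. The 8 higher were Tomm40, Tomm7, Tomm22, Timm8b, Timm9, Timm10b, Timm17a and Timm50. The 4 lower were Tomm70a, Timm29, Pmpcb and Hspd1. Among bright genes the median was -0.03 for the import genes, against -0.09 for all. At the same unadjusted p, 24.2% of the bright import genes were higher and 12.1% lower, against 14.2% and 24.7% of all bright genes. The machinery's differences thus had both signs, with more higher and fewer lower genes at that p than the array. They were not tested as a set, and are described by the step of import that each gene serves. Tomm20l and Timm8a2, which encode relatives of Tom20 and Tim8a, lay within the Bacillus control range on all 4 arrays and are not described further. The other 33 genes lay above it on all 4 arrays.

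**Figure D1:**
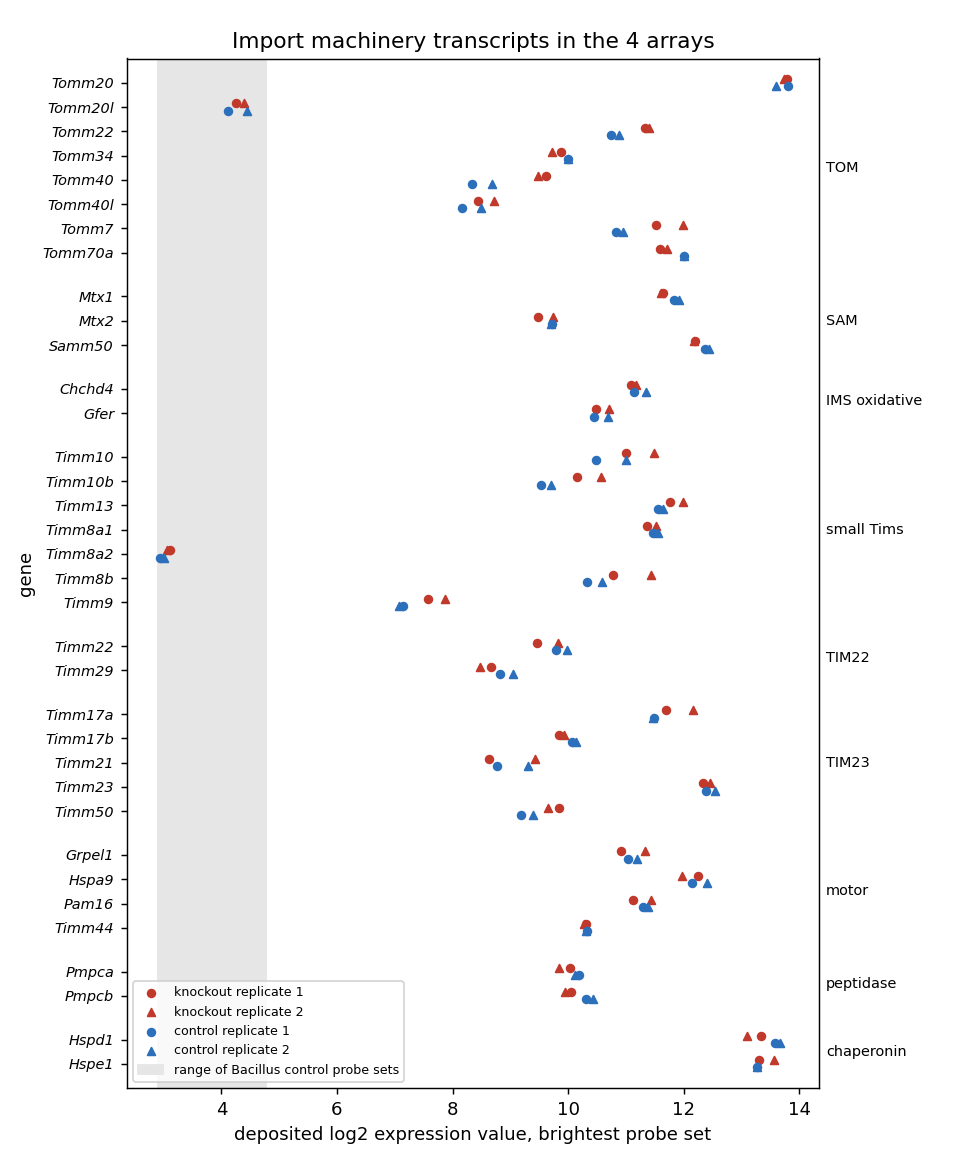
Deposited log2 expression value of each import gene (horizontal axis) on its brightest probe set, 1 row per gene, grouped by step of import, with red for the knockout, blue for the control, circles for replicate 1 and triangles for replicate 2. Tomm40 and Tomm7 are the 2 genes that passed the threshold, and Tomm20l and Timm8a2 lie in the grey range of the Bacillus control probe sets.

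Tomm40, which encodes the channel through which precursors cross the outer membrane, was at 9.61 and 9.47 in the knockout arrays and at 8.34 and 8.68 in the control arrays. Both knockout arrays were higher than both control arrays, by a log2 difference of 1.03 ± 0.16 (limma SE, n = 2 each, adjusted p = 0.0336), or 2.05-fold. It has a single probe set and a genomic span of 14.1 kb. Corrected for the trend with gene span, the difference was 1.02 (adjusted p = 0.0250). With any 1 array left out Tomm40 no longer passed, at differences of 0.96 (knockout replicate 1 left out), 1.10 (knockout replicate 2), 0.86 (control replicate 1) and 1.20 (control replicate 2) (adjusted p between 0.0753 and 0.1225).

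Tomm7, which encodes a small subunit that modulates the assembly and dissociation of the complex, was at 11.53 and 12.00 in the knockout, against 10.82 and 10.95 in the control arrays. It rose by 0.87 ± 0.18 (limma SE, n = 2 each, adjusted p = 0.0482), or 1.83-fold, with no overlap between the groups. Its other 2 bright probe sets were also higher in both knockout arrays, at 11.45 and 11.81 against 10.96 and 11.02 in the control for a difference of 0.64, and at 8.04 and 8.31 against 7.73 and 7.86 for a difference of 0.38. The smaller sizes bear on the call: with all probe sets averaged the difference was 0.50 (adjusted p = 0.0900), and after removal of the trend with gene span it was 0.74 (adjusted p = 0.0593). It did not pass without knockout replicate 1 (1.11), knockout replicate 2 (0.64), control replicate 1 (0.81) or control replicate 2 (0.94).

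Among the receptors of the TOM complex no gene passed. Tomm22, the central receptor that also ties the channel together, was at 11.32 and 11.39 in the knockout, against 10.74 and 10.89 in the control (difference 0.55 ± 0.14, limma SE, adjusted p = 0.0653), without overlap. Its second probe set gave 10.44 and 10.51 in the knockout, against 10.45 and 10.53 in the control, so the 2 probe sets of Tomm22 disagreed. Tomm70a, the receptor for carrier precursors and an anchor for cytosolic chaperones, was at 11.59 and 11.71 in the knockout and at 12.01 on both control arrays (difference -0.36, adjusted p = 0.155). All 4 bright probe sets of Tomm70a were lower in both knockout arrays, by differences between -0.28 and -0.78. Tomm20, the presequence receptor, was at 13.79 and 13.73 in the knockout, against 13.80 and 13.60 in the control (difference 0.06, 95% interval -0.27 to 0.39). Its 6 probe sets ranged from -0.54 to 0.36. Tomm40l, a paralogue of the channel gene, differed by 0.25 (adjusted p = 0.437) and its dimmer probe set by -0.58. Tomm34, a cytosolic cochaperone of precursors, was lower in both knockout arrays (difference -0.20, adjusted p = 0.436).

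**Figure D2:**
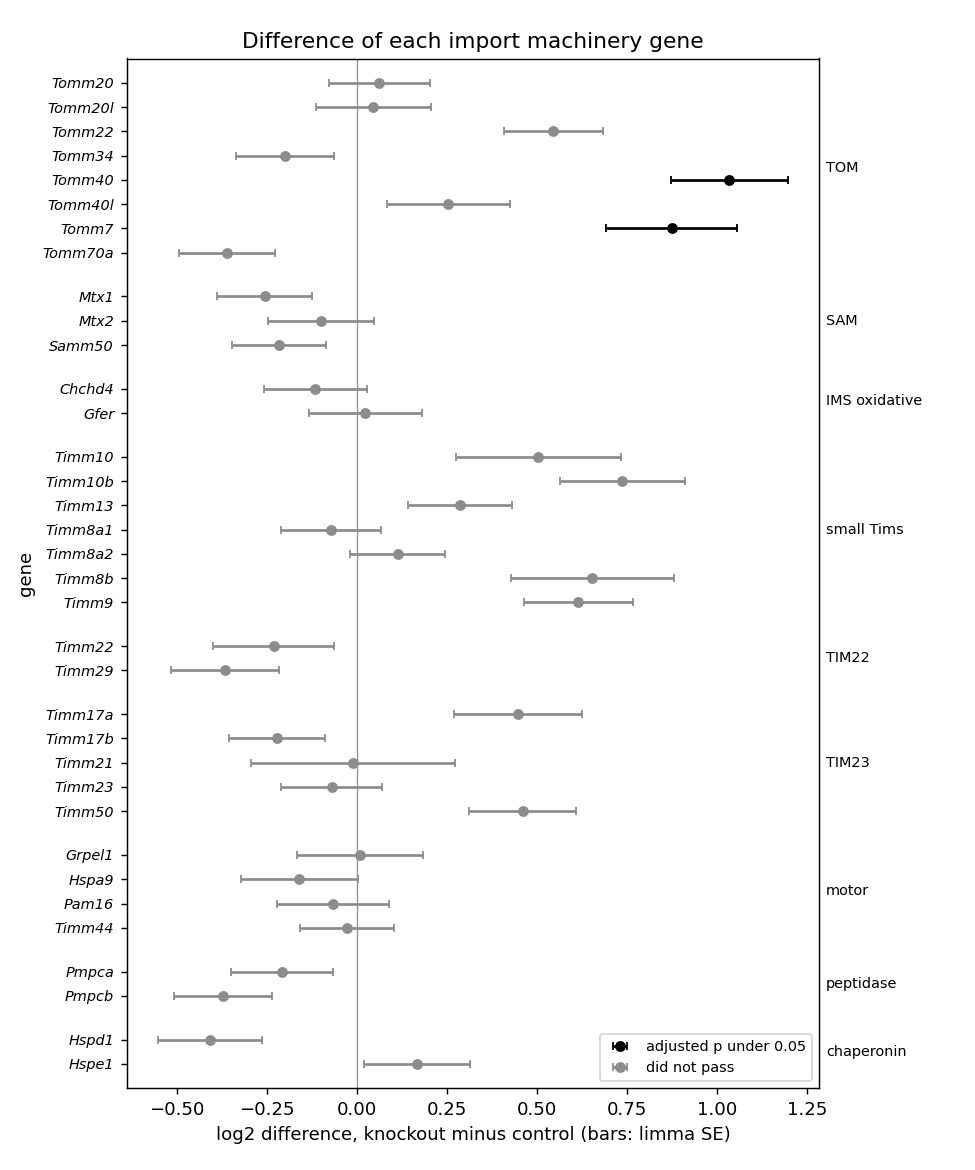
Log2 difference of each import gene, knockout minus control (horizontal axis), with limma's standard error, grouped by step of import. Only Tomm40 (1.03) and Tomm7 (0.87), in black, passed the threshold, while 6 of the 7 small Tims had positive differences and the SAM, TIM22 and peptidase genes had negative differences that did not pass.

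The small Tims are chaperones that carry hydrophobic precursors across the intermembrane space as hexamers. In this family 6 of 7 differences were positive (the dim Timm8a2 included), with a median of 0.50, and none passed with limma. At an unadjusted limma p under 0.05, 3 of the 7 were higher (42.9%) and none lower, against 9.06% and 14.9% of all genes. Timm10b, whose product sits with the TIM22 complex, was at 10.16 and 10.56 in the knockout, against 9.54 and 9.71 in the control (difference 0.74 ± 0.17, limma SE, adjusted p = 0.0579). Timm9, a partner of Tim10 in the main hexamer, was at 7.58 and 7.87 in the knockout, against 7.14 and 7.08 in the control (difference 0.61, adjusted p = 0.0632). Neither gene's arrays overlapped between the groups. When dimmer genes, with a mean under 6, were left out of the limma test, both passed (adjusted p = 0.0428 and 0.0495). In that setting 4 of 33 import genes passed, against 1224 of 9484 genes, so the import genes' share was near the background. The other 2 bright probe sets of Timm10b, however, differed by 0.19 and 0.20.

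Timm8b, a partner of Tim13 by homology to the yeast Tim8, was at 10.78 and 11.44 in the knockout, against 10.33 and 10.59 in the control (difference 0.65, adjusted p = 0.134). Timm10 was at 11.00 and 11.49 in the knockout, against 10.48 and 11.00 in the control, so that its groups overlapped (difference 0.50, adjusted p = 0.238). In these 2 genes replicate 2 was the higher one in both groups, as it was in Timm10b, Timm13 and Timm8a1. That makes 5 of the 7 small Tims (71.4%), against 30.9% of all genes. Timm13 was at 11.77 and 11.99 in the knockout, against 11.55 and 11.64 in the control (difference 0.29, adjusted p = 0.287). Timm8a1, the mouse counterpart of the gene mutated in human deafness-dystonia syndrome, was at 11.37 and 11.52 in the knockout, against 11.48 and 11.56 in the control on its brightest probe set. Its second probe set was at 10.34 and 10.80 in the knockout, against 9.56 and 9.75 in the control, a difference of 0.92 (adjusted p = 0.0746 over all probe sets) against -0.07 on the brightest. The direction for Timm8a1 thus depended on the probe set.

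The oxidative import pathway of the intermembrane space folds the small Tims by forming their disulphide bonds. Its genes held close values in both groups on their brightest probe sets. Chchd4, the import oxidoreductase known as Mia40 in yeast, was at 11.08 and 11.18 in the knockout, against 11.14 and 11.36 in the control (difference -0.12, 95% interval -0.45 to 0.22). Gfer, the sulfhydryl oxidase that reoxidises it, was at 10.49 and 10.70 in the knockout, against 10.45 and 10.70 in the control (difference 0.02, 95% interval -0.34 to 0.39). On these probe sets the groups overlapped for both genes. A dimmer probe set of Gfer was at 8.85 and 8.68 in the knockout, against 9.12 and 9.28 in the control. Its groups did not overlap (difference -0.43, adjusted p = 0.161 with limma over all probe sets).

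The SAM complex genes were all lower in mean, and none passed (0 of 3 with limma, and none at an unadjusted p under 0.05). Samm50, the barrel-inserting core, was at 12.19 and 12.18 in the knockout, against 12.37 and 12.44 in the control (difference -0.22, adjusted p = 0.376). Mtx1, a metaxin that works with it, was at 11.64 and 11.61 in the knockout, against 11.84 and 11.93 in the control (difference -0.26 ± 0.13, limma SE, adjusted p = 0.297), with a second probe set at 0.30. Mtx2, the partner of metaxin 1, differed by -0.10, with overlapping groups. For Samm50 and Mtx1 the brightest probe sets did not overlap between groups, but in neither gene did the second probe set keep the sign. That of Samm50 was at 10.81 on both knockout arrays, against 10.63 and 10.98 in the control. Its groups overlapped (difference 0.0052).

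At the inner membrane, Timm22, the carrier translocase, was at 9.47 and 9.83 in the knockout, against 9.78 and 9.98 in the control (difference -0.23, adjusted p = 0.472). Timm29, a subunit that in human cells links the TIM22 complex to TOM, was at 8.67 and 8.47 in the knockout, against 8.83 and 9.05 in the control (difference -0.37 ± 0.15, limma SE, adjusted p = 0.194). The groups overlapped for Timm22 and not for Timm29. Among the 5 TIM23 genes, differences ran from -0.22 to 0.46 and none passed with limma. At an unadjusted limma p under 0.05, 2 of the 5 were higher (40%) and none lower, against 9.06% and 14.9% of all genes. Timm50, the receptor that takes over precursors from TOM, was at 9.84 and 9.65 in the knockout, against 9.18 and 9.39 in the control (difference 0.46 ± 0.15, limma SE, adjusted p = 0.114), and its second probe set differed by 0.23. Timm23, the channel subunit, was at 12.34 and 12.46 in the knockout, against 12.39 and 12.55 in the control (difference -0.07, 95% interval -0.40 to 0.26). Timm21, which tethers TIM23 to TOM, spread more between replicates than between groups, at 8.63 and 9.44 in the knockout, against 8.78 and 9.32 in the control.

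The paralogues Timm17a and Timm17b, alternative core subunits of the TIM23 complex, had differences of opposite sign on their brightest probe sets. Timm17a was at 11.69 and 12.16 in the knockout, against 11.49 and 11.48 in the control (difference 0.45, adjusted p = 0.184). Timm17b was at 9.84 and 9.93 in the knockout, against 10.07 and 10.13 in the control (difference -0.22, adjusted p = 0.374). The second Timm17b probe set was at 8.95 and 9.26 in the knockout, against 8.21 and 8.54 in the control, a difference of 0.73. The opposite signs of the paralogues therefore held only for the brightest Timm17b probe set.

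The import motor genes had small differences, between -0.16 and 0.01, and none passed (0 of 4 with limma, and none at an unadjusted p under 0.05). Hspa9, which encodes mortalin, the matrix Hsp70 that pulls precursors in, was at 12.24 and 11.98 in the knockout, against 12.14 and 12.40 in the control (difference -0.16 ± 0.16, limma SE, 95% interval -0.54 to 0.22). Its other 2 bright probe sets were lower in both knockout arrays, by differences of -0.43 and -0.77. Timm44, which docks mortalin at the channel, was at 10.30 and 10.27 in the knockout, against 10.32 and 10.31 in the control, and its 3 probe sets agreed within 0.05. Grpel1, the nucleotide exchange factor of mortalin, differed by 0.01 (95% interval -0.40 to 0.42), and Pam16, a J-like regulator of the motor, by -0.07 (95% interval -0.43 to 0.30).

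In the matrix, Pmpcb and Pmpca, the catalytic and the substrate-binding subunit of the processing peptidase, were lower in both knockout arrays and did not pass. Pmpcb was at 10.05 and 9.95 in the knockout, against 10.32 and 10.43 in the control (difference -0.37 ± 0.14, limma SE, adjusted p = 0.150). Pmpca was at 10.04 and 9.84 in the knockout, against 10.18 and 10.11 in the control (difference -0.21, adjusted p = 0.439). The second probe sets differed by -0.26 for Pmpcb and by -0.09 for Pmpca, with the same sign.

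Hspd1 and Hspe1, which encode Hsp60 and its lid Hsp10 and lie head to head around the promoter window shown above, had differences of opposite sign. Hspd1 was at 13.33 and 13.10 in the knockout, against 13.59 and 13.66 in the control (difference -0.41 ± 0.14, limma SE, adjusted p = 0.140). Hspe1 was at 13.31 and 13.57 in the knockout, against 13.26 and 13.28 in the control (difference 0.17, adjusted p = 0.572), and its second probe set was at 12.17 and 12.57 in the knockout, against 11.63 and 11.79 in the control (difference 0.66, adjusted p = 0.110 over all probe sets). Both probe sets of Hspe1 were higher and that of Hspd1 lower in both knockout arrays, although no difference passed the threshold. The annotated spans of the 2 genes are 3.17 kb for Hspe1 and 10.4 kb for Hspd1.

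Probe sets of the same gene gave a second view of these values. The import genes had 72 single-gene probe sets, 61 of them bright (a mean of at least 6), and 18 genes had at least 2 such bright probe sets. In 9 of the 18 (50%) all bright probe sets had the same sign, against 53.4% of the 3534 genes on the array with several. The median range of differences within a gene was 0.49, against 0.45 over those genes. Range exceeded 0.5 in 8 of the 18 import genes (Hspa9, Mtx1, Timm10b, Timm17b, Timm8a1, Tomm20, Tomm22 and Tomm40l), against 1612 of the 3534 genes. Tested singly over all 45037 probe sets, none of the 72 passed with limma, against 0.546% of all probe sets, and the adjusted p of Tomm40 was 0.0564. For scale, the difference between the groups on the brightest probe set was smaller than the import genes' median range in 28 of the 35. The same count was not made over all genes, so it cannot set the import genes apart. The share of the disagreement between probe sets that follows the 3' to 5' gap was not tested.

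**Figure D3:**
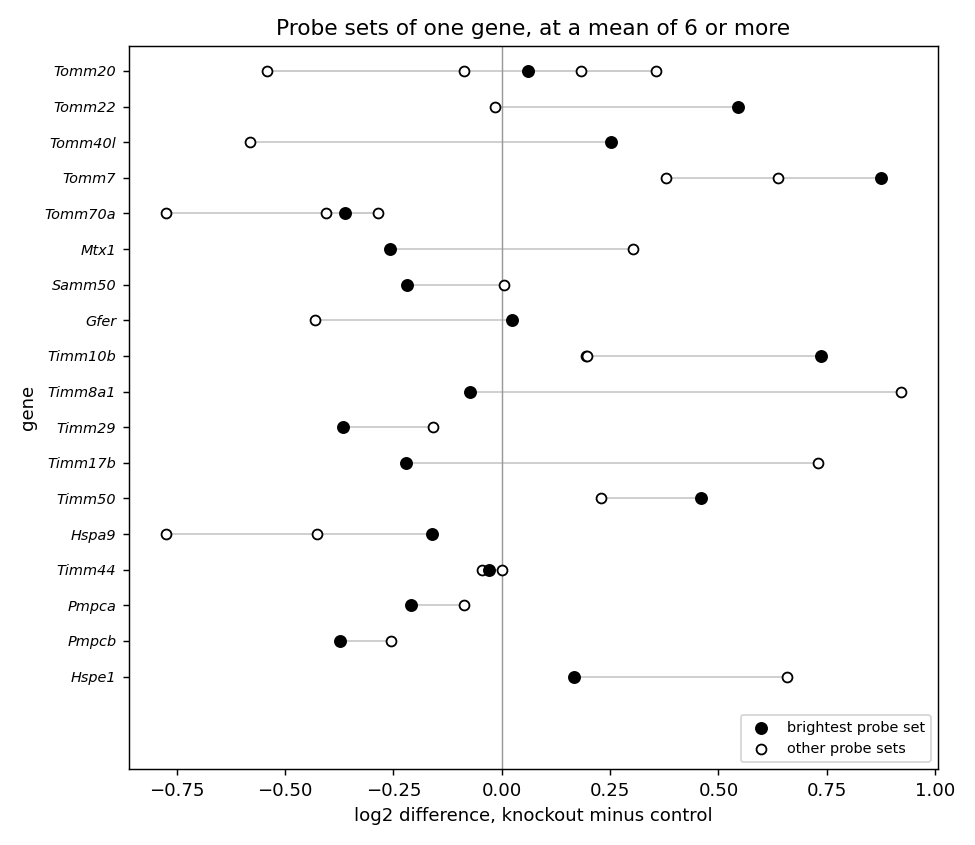
Log2 difference, knockout minus control (horizontal axis), of every bright probe set of the 18 import genes with at least 2 such probe sets, filled for the brightest and open for the others. Tomm7 and Tomm70a lie wholly on 1 side of 0, whereas Timm8a1 (-0.07 and 0.92), Timm17b (-0.22 and 0.73) and Tomm22 (0.55 and -0.02) do not keep 1 value.

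The length of a gene moved with its difference across the array. Among bright genes, those averaging 6 or higher, the median difference was 0.20 for the 240 genes spanning up to 2 kb and -0.29 for the 1074 genes spanning over 100 kb. Import genes have short spans, with a median of 9.15 kb against 20.3 kb over all genes. Within the 33 bright import genes, Spearman's rho between difference and span was -0.35, beside -0.34 over all bright genes; genes share the arrays and are not independent replicates. The 3 import genes spanning up to 2 kb, Timm8b, Timm13 and Tomm22, had a median difference of 0.55. After removal of the span trend these 3 differed by 0.37 (Timm8b), 0.015 (Timm13) and 0.29 (Tomm22). Of the other small Tims, Timm10 then differed by 0.30, Timm10b by 0.76, Timm9 by 0.59 and Timm8a1 by -0.23, and none of these 7 genes passed. Tomm40 and Timm10b, with spans of 14.1 and 15.3 kb, lay where the array-wide median was -0.03.

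**Figure D4:**
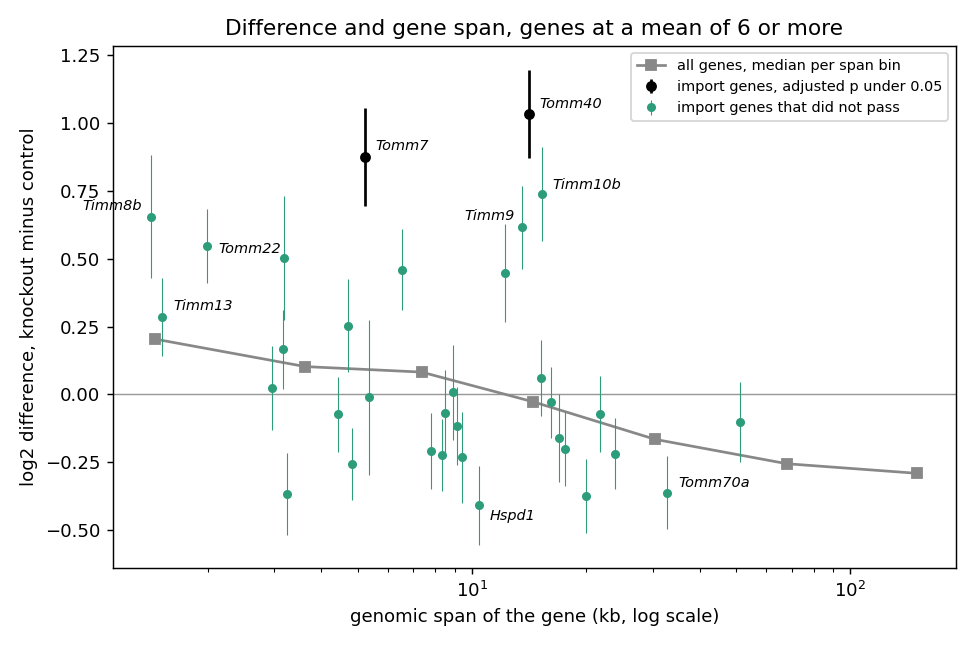
Log2 difference, knockout minus control, with limma's standard error, against the genomic span of each of the 33 bright import genes (log axis), with grey squares for the median of all genes in 7 bins of span. The grey line falls from 0.20 at the shortest to -0.29 at the longest genes, and Tomm40 (1.03) and Tomm7 (0.87) lie above it.

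The import genes' values also differed between the replicate numbers, and the labels do not say what separated the replicates. In 19 of 35 (54.3%) replicate 2 was higher than replicate 1 in both groups, against 30.9% of all genes, and in 3 it was lower in both. Timm21 showed the widest such spread, by 0.80 in the knockout and 0.54 in the control, followed by Timm8b in the knockout with 0.66. Of the 2 risen genes, Tomm7 was higher in replicate 2 in both groups (by 0.47 in the knockout and 0.13 in the control). Tomm40 was not (-0.14 in the knockout and 0.34 in the control). Of the 14 feeder markers none was higher in replicate 2 in both groups and 11 were lower, and the part of feeder cells in the import genes' values was not tested.

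Related mitochondrial gene lists gave the setting of these counts. Of all genes 4.14% were called, and of bright genes 7.29%. Of the mitochondrial ribosomal protein genes, all bright, 11.8% were called, 7 of 76 higher and 2 lower (median 0.28). At an unadjusted limma p under 0.05, 30 of them were higher (39.5%) and 6 lower (7.89%). Of the subunits of the respiratory chain and ATP synthase 7.78% were called, near the share of bright genes, 7 of 90 higher and none lower (median 0.15). At that unadjusted p, 29 of these subunits were higher (32.2%) and 3 lower (3.33%). The shares at that p were 9.06% higher and 14.9% lower over all genes, and 14.2% and 24.7% over bright genes. The import genes' median of -0.01 was the lowest of the 3, and no test of that difference was made. Both lists also had replicate 2 higher in both groups in more of their genes (72.4% and 66.7%).

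Among 16 further import and insertion genes 1 rose (6.25%, against 4.14% of all genes called in either direction). This was Oxa1l, the inner membrane insertase for proteins made inside mitochondria, at 7.79 and 7.69 in the knockout, against 6.53 and 6.86 in the control (difference 1.05 ± 0.16, limma SE, adjusted p = 0.0317). With all its probe sets averaged it differed by 0.47 (adjusted p = 0.0808). None of 8 genes of the MICOS complex, which shapes cristae, passed with limma. At an unadjusted limma p under 0.05, 3 were higher (37.5%) and 1 lower (12.5%), against 9.06% and 14.9% of all genes. The largest difference was that of Micos13, at 10.64 and 11.21 in the knockout, against 9.90 and 10.20 in the control (0.87, adjusted p = 0.0621). Chchd6, with the list's lowest adjusted p, was lower, at 8.98 and 9.09 in the knockout, against 9.65 and 9.64 in the control (-0.61, adjusted p = 0.0508). Of the 8 differences 5 were positive and 3 negative. Of 10 mitochondrial proteases and prohibitins 1 (10%) fell, Yme1l1, an inner membrane protease known in human cells to degrade Tim17a. Yme1l1 was at 9.75 and 9.76 in the knockout, against 10.41 and 10.55 in the control (difference -0.73 ± 0.13, limma SE, adjusted p = 0.0420). It did not pass after removal of the span trend (-0.54, adjusted p = 0.0691). The 3 porins of the outer membrane, Vdac1, Vdac2 and Vdac3, had differences from -0.33 to -0.17, none of which passed with limma, also at an unadjusted p under 0.05. Among 14 regulators of mitochondrial biogenesis 1 (7.14%), Esrrb, rose, by 1.05 ± 0.20 (limma SE, adjusted p = 0.0426). The list's median was -0.27, with 4 positive and 10 negative differences. At an unadjusted limma p under 0.05 only Esrrb was higher (7.14%), while Tfb2m, Yy1 and Tfam were lower (21.4%), against 9.06% and 14.9% of all genes. Nrf1 (-0.27) and Gabpa (-0.33) did not pass. Esrrb is also 1 of the 5 ES cell markers counted above as risen, so the 2 counts share this gene. With all its probe sets averaged Esrrb differed by 0.63 (adjusted p = 0.0600). Oxa1l, Yme1l1 and Esrrb no longer passed with any 1 array left out, at differences of 0.88 to 1.21, -0.80 to -0.66 and 0.77 to 1.33.

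The genes most like the 2 risen members were sought by the root mean square distance between their values on the 4 arrays, after each gene's mean was subtracted, among 9483 other bright genes. For Tomm40 they were Oxa1l (distance 0.016), Nt5dc2 (0.027) and Ascc1 (0.040). For Tomm7 they were Uqcrh, a subunit of respiratory complex III (0.022), Apoc1 (0.035) and Znrd1 (0.049). The search fixes that their differences resemble those of Tomm40 and Tomm7, and with 4 values per gene such a likeness describes these arrays only.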

How the data were processed

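Per the file, the authors deposited 1 log2 expression value for each probe set (45101 on each of 4 single-colour arrays, from 2.56 to 14.78), for which the submitters' processing notes name RMA and limma, without versions. RMA corrects background, equalises the arrays' distributions and summarises probes, so a shift common to most genes would be lost. Biotinylated RNA was amplified from the 3' end, per the labels' protocols. The number of arrays, 2 per group, limits the precision.

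Probe sets were named by GEO's platform annotation (34958 with 1 symbol, 932 with several, 9211 with none). After 64 control probe sets were set aside, 34945 gave 18193 genes by the brightest probe set. The 2 groups were compared by limma 3.58.1 (lmFit, then eBayes; R 4.3.3) with no covariate. Two-sided p-values were Benjamini-Hochberg adjusted over all genes (threshold 0.05), with 2 residual and 5.31 prior degrees of freedom. The code was tested on simulated data. Gene spans and promoter windows came from RefSeq (GRCm38.p6). A build for the array is not named in the labels.

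Every member was named, with full statistics for those past the threshold and for the largest difference in each group without one, and companion lists were named by their called genes. Micos13, Chchd6 and some further members' values were added after the values were seen. Members, lists and alternatives were chosen with earlier results of these data known, and no list was tested as a set.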

Additional observations from a re-analysis of the deposited data

How the results depend on the processing

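The call of Tomm40 and Tomm7 held with an intensity trend, a robust fit, a further quantile normalization and median-centred arrays, 2 import genes passing in each. It was 4 when only genes at a mean of 6 or more were tested (Timm10b and Timm9 added), 1 when a gene was read as the average of its probe sets and 1 after removal of the span trend (Tomm40 in both), and 0 with all probe sets tested singly. With 1 array left out it was 0 in each of the 4 cases (range 0 to 0), the lone array being assumed to vary like the remaining pair. With the replicate block 7 of 35 import genes passed, all higher (Tomm40, Tomm7, Tomm22 and the small Tims Timm8b, Timm9, Timm10 and Timm10b). Over the array 3092 of 18193 genes passed with it (1200 higher and 1892 lower), so the share in either direction was near that background. Without the block, at a mean of 6 or more, 4 of 33 import genes passed, against 1224 of 9484 genes (525 higher and 699 lower). The replicate numbers share only a label, although deviations of same-numbered arrays correlated at 0.41 over genes at a mean of 6 or more. All genes passing numbered 3092 with that block, against 754 without it, and 1224 at a mean of 6 or more, 481 with an intensity trend, 321 with probe sets averaged, 246 probe sets when tested singly, and 4 to 50 with 1 array left out. The import genes' median difference ranged from -0.10 to 0.088 with 1 array left out, and the SD between replicates of that median was 0.084.

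Of 453 differences of single import genes under the alternatives, 28 changed sign, all of genes that did not pass in the main comparison. With probe sets averaged these were Gfer (-0.20), Mtx1 (0.023), Timm8a1 (0.42), Timm17b (0.25) and Tomm40l (-0.16). After removal of the span trend they were Grpel1 (-0.040), Timm44 (0.0100), Gfer (-0.20), Mtx2 (0.10) and Timm23 (0.053). A further quantile normalization turned Grpel1 (-8.81e-05), Timm21 (0.020) and Tomm20 (-0.051), and median centring turned Timm44 (0.0057) and Timm21 (0.023). With 1 array left out the differences ranged from -0.20 to 0.22 for Grpel1, -0.22 to 0.090 for Pam16, -0.10 to 0.15 for Gfer, -0.23 to 0.028 for Mtx2, -0.15 to 0.0042 for Timm8a1, -0.41 to 0.39 for Timm21, -0.15 to 0.010 for Timm23, -0.037 to 0.16 for Tomm20 and -0.12 to 0.21 for Tomm20l. The cause was not tested. Depth here is signal over background, which limits Tomm20l and Timm8a2.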
